A study of Mus musculus with 60 samples.

Results

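The genes described here are 10 members of the machinery that writes, removes and reads methylation of lysine 9 of histone H3 (H3K9), followed in single mouse embryos made by fertilization or by somatic cell nuclear transfer (NT). They are the methyltransferases Suv39h1, Suv39h2, Setdb1, Ehmt1 and Ehmt2, the demethylases Kdm4a, Kdm4b, Kdm4c and Kdm4d, and the reader Cbx5. The members were taken by gene symbol, through the Ensembl identifiers of the table, and all 10 were found among its 27238 genes.

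H3K9 methylation marks compacted and silent chromatin. Suv39h1 and Suv39h2 write trimethylation at repeats around the centromeres, Setdb1 writes it at retroelements and silenced genes, and Ehmt1 and Ehmt2 work as a pair that writes mono- and dimethylation in euchromatin. Enzymes of the Kdm4 family remove tri- and dimethylation, Cbx5 (HP1 alpha) binds the mark, and methylated H3K9 carried over with the donor nucleus is a known obstacle to nuclear transfer.

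The 60 libraries form 20 groups of 3. In vivo embryos came from superovulated C57BL/6 females mated with DBA2 males, NTC embryos received the nucleus of a cumulus cell (CC) and NTM embryos that of a mouse embryonic fibroblast (MEF), each in 6 stages from the pronuclear 1-cell embryo to the blastula. Both donor cells and the enucleated oocytes of adult females were BDF1, the cross of the same strains, so the nuclei of all groups share this background. The oocytes did not: those of in vivo embryos came from C57BL/6 females and those of NT embryos from BDF1 females. All NT embryos, and no in vivo embryo, had been activated with SrCl2, treated with cytochalasin B and the histone deacetylase inhibitor Scriptaid, and cultured in vitro. Nuclear transfer, these agents, culture and the strain of the oocyte therefore cannot be told apart. MEFs came from fetuses, were passaged and were serum-starved before use, CCs were stripped from the oocytes of superovulated females, and embryos were picked by morphology. Values are in RPKM, the reads of a gene scaled to exon length and to library size. In whole embryos, fewer cells that carry a transcript and less of it per cell cannot be told apart. Embryos of a stage came from independent collections, but the labels do not tie a library to one of them, so p-values measure the spread between these samples.

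Libraries held 5294167 to 47830132 reads on genes, with all 6 donor libraries deeper than the embryo libraries (31558140 or more against 26281508 or fewer). The in vivo 4-cell libraries stood apart. Mitochondrial genes took 5.68% to 8.87% of their reads, against 29.6% to 40.4% in the NT 4-cell embryos and at least 20.4% in all other libraries from the 4-cell stage on. They had 13576 to 13932 genes above 0, where the NT 4-cell embryos had 8997 to 11929, the in vivo blastulas 7730 to 7808 and the NT blastulas 11498 to 13568. In the mitochondrial share they were closer to earlier embryos: in vivo 2-cell libraries had 7.32% to 12.7% of reads on mitochondrial genes. The number of genes did not place them by stage. It was 9491 to 12593 in in vivo 1-cell, 10667 to 14582 in in vivo 2-cell and 11841 to 13314 in NTC morula libraries. Because the in vivo 4-cell libraries stood apart, changes over these stages were also computed from the 2-cell to the 8-cell stage, without any 4-cell embryo. Members with a mean under 0.5 RPKM in such a comparison were not tested in it. The fibroblast, oocyte and blastocyst markers were high in the groups they mark, the last 2 not only there. The sum of 9 fibroblast genes was 7983 to 10089 RPKM in MEFs and 22.3 or less in embryos. That of 9 oocyte genes was 2198 to 4787 in 1-cell and 1709 to 3193 in 2-cell embryos. In 4-cell embryos it was 63.5 to 81.7 in vivo and 57.5 to 119 in NTC. For 6 two-cell genes it was 125 to 1632 in in vivo 2-cell and 2.56 to 18.7 in in vivo 4-cell embryos. The 10 blastocyst genes summed to 292 to 1157 in blastulas, up to 322 in NTC morulas and 134 to 208 in CCs. The cumulus markers followed the labels in the number of genes at 1 RPKM or more, but not in their sum. Of 9 cumulus genes, 7 averaged 1 RPKM or more in CCs and 5 in MEFs, but their sum was 305 to 442 RPKM in CCs and 522 to 1236 in MEFs, higher in every MEF library than in any CC library, and Has2 was at 0 in all 3 CC libraries. At the 4-cell stage the cumulus sum had a median of 18.2 RPKM in vivo and ranged over 5.36 to 57.5 in NTC and 6.50 to 56.0 in NTM embryos, and the groups overlapped.

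**Figure D1:**
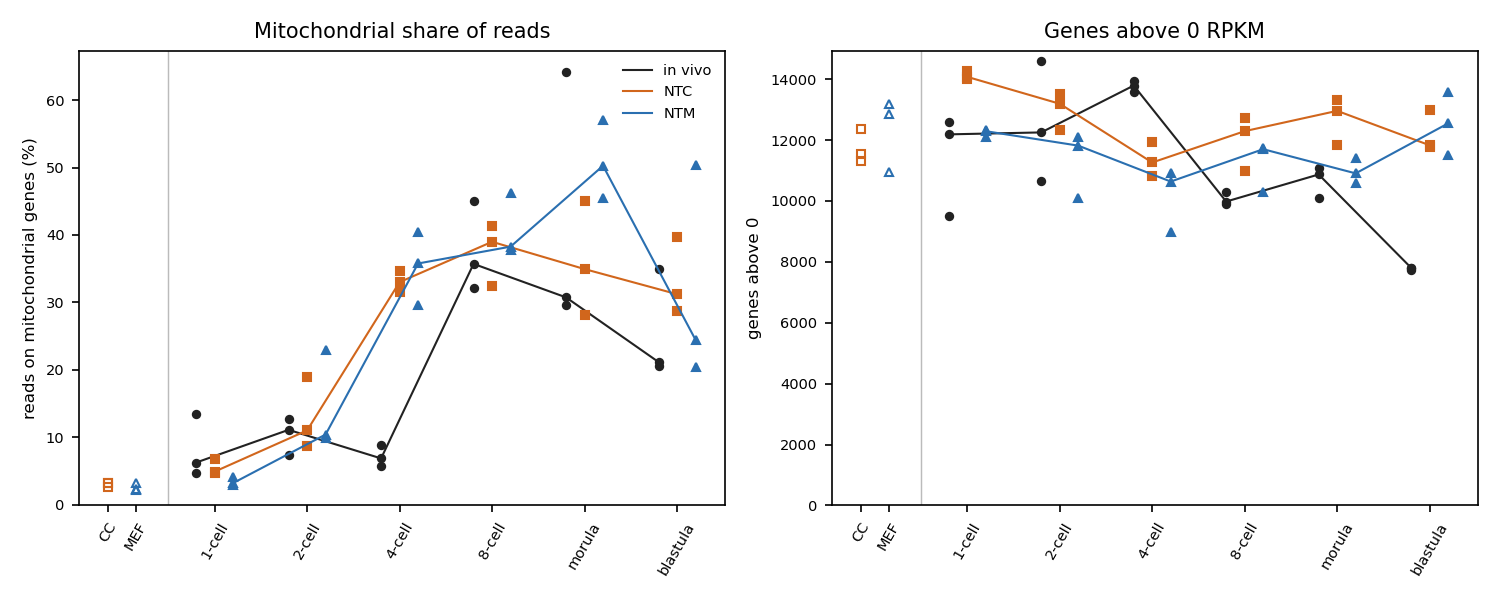
Share of reads on mitochondrial genes in percent (left) and number of genes above 0 RPKM (right) in each library, by stage. Points are single libraries, lines join group medians, open symbols are donor cells. The 3 in vivo 4-cell libraries lie at 5.68% to 8.87%, below the NT 4-cell libraries at 29.6% to 40.4%.

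Members were called between NT and in vivo embryos at the 4-cell stage only, where the in vivo libraries also stood apart in mitochondrial reads. Kdm4a and Suv39h1 were lower and Suv39h2 was higher in both kinds of NT embryo. Of these, only Kdm4a was called in every refit for both NT types. The 6 NT and the 3 in vivo libraries did not overlap for 3 of 9 members, near the 27.8% of all genes, so the count is not particular to the members. Within all 3 embryo types, Suv39h2 fell and Ehmt2 and Kdm4c rose between the 2-cell and the 8-cell stage. Kdm4b was high in donor cells and low in embryos, and Kdm4d was at or near 0 almost throughout.

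The promoters of the 4 genes on which the results turn are printed to show how they differ in sequence: Suv39h1, Suv39h2 and Kdm4a, which separated NT from in vivo embryos at the 4-cell stage, and Ehmt2, which rose there in every embryo type. They are RefSeq sequences of 300 bases around the annotated start on GRCm38.p6, read 5′ to 3′ on the strand of the gene, and 9 of the 10 members had an entry. Capitals mark matches, on either strand, to 9 short motifs: the CCAAT box, a GC box (GGGCGG), the core element that reads TATAAA, an ETS site (CCGGAA), an E-box (CACGTG), a cAMP response element (TGACGTCA), a YY1 site (AANATGGC), an Nr5a2 site (CAAGGTCA) and an Obox site (GGATTA). The motifs were chosen after the expression values had been seen, and no match overlaps another in these 4 sequences.
Suv39h1, first of its annotated starts, chrX:8074711-8075010, minus strand: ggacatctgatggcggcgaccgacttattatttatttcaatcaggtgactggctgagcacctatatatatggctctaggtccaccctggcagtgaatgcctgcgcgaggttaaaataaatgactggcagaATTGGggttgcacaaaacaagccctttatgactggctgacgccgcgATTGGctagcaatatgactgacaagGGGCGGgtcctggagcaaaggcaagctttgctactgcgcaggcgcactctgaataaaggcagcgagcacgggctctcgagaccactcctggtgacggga
Suv39h2, chr2:3474937-3475236, minus strand: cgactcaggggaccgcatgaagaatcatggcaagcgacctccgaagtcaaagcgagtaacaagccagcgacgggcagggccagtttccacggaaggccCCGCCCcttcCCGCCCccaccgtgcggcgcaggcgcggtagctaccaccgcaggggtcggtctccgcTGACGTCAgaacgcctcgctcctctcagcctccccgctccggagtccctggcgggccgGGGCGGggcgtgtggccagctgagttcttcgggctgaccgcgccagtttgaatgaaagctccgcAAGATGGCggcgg
Kdm4a, chr4:118179994-118180293, minus strand: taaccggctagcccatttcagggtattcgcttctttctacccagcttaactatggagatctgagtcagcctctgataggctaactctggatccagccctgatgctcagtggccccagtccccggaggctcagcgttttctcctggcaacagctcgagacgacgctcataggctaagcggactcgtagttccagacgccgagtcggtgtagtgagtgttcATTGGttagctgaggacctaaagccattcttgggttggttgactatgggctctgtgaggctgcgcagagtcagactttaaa
Ehmt2, first of its annotated starts, chr17:34898224-34898523, plus strand: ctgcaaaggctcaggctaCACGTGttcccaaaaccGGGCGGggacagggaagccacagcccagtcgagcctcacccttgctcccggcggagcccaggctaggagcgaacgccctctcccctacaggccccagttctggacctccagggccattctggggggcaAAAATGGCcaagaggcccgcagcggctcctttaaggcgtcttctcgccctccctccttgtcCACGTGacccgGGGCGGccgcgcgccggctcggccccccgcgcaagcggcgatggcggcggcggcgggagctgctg

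The 4 printed promoters differed in base composition. The Suv39h2 and Ehmt2 promoters held 33 and 28 CG dinucleotides at a GC content of 68.3% and 70.3%, while those of Suv39h1 and Kdm4a held 15 and 13 at 53.0% and 53.3%, against a median of 7 and 52.7% over 32851 promoters. Kdm4a matched only the CCAAT box, which 37.4% of all promoters hold, and Suv39h1 had 2 matches to it and 1 to the GC box (35.7% of promoters). Suv39h2 had 3 GC boxes, 1 cAMP response element (1.79%) and 1 YY1 site (6.05%), and Ehmt2 had 2 GC boxes, 2 E-boxes (7.15%) and 1 YY1 site. The second annotated start of Suv39h1 had 37 CG dinucleotides at a GC content of 71%, 1 GC box and 1 YY1 site, so the low content holds for its printed start only. That of Ehmt2 had 40 CG dinucleotides at 82.7%, 4 GC boxes, 1 E-box and no YY1 site, so the YY1 site of Ehmt2 also holds for its printed start only. A match describes letters only, and binding was not measured.

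Suv39h1 (ENSMUSG00000039231, chrX:8061171-8074760, minus strand) was nearly absent from early embryos. It was listed at 0 in 8 of the 18 1-cell and 2-cell libraries and stayed under 1 RPKM in 17 of them. The in vivo 4-cell embryos had 6.03, 5.71 and 12.5 RPKM. The NTC 4-cell embryos had 1.21, 0.513 and 0.296 RPKM and the NTM ones 0.196, 0.330 and 1.36. No NT embryo reached the lowest in vivo embryo of this stage, and the log2(RPKM + 1) difference from in vivo was -2.40 for NTC (SE 0.49, adjusted p = 0.00696, limma) and -2.47 for NTM (SE 0.57, adjusted p = 0.0194). The NTC call held without any single library, while the NTM call was lost without any of the 3 in vivo replicates or NTM replicate 1, at an adjusted p of 0.0543 to 0.0742. Later on, only 2 of 27 embryos reached 1 RPKM, NTC 8-cell replicate 3 with 3.07 and in vivo blastula replicate 3 with 9.86. An antisense gene, Gm14820, covers 767 of the 5270 exonic bases, and the libraries do not keep the strand, so reads of either cannot be told apart there. Suv39h1 lies on the X chromosome. NTC embryos carry nuclei of females, while the sex of the MEFs and of the in vivo embryos is not given, and an effect of sex was not tested.

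Suv39h2 (ENSMUSG00000026646, chr2:3455815-3475031, minus strand), the other enzyme of this pair, had the opposite course. It was at 22.1 to 149 RPKM in all 18 1-cell and 2-cell embryos, while 4 of 6 donor libraries were under 1 RPKM. The in vivo embryos had 149, 107 and 69.7 RPKM at the 1-cell stage and 99.9, 75.6 and 98.0 at the 2-cell stage. The NTC embryos had 60.6, 60.4 and 64.3 and then 49.6, 76.1 and 37.1, and the NTM embryos 38.1, 86.3 and 80.2 and then 27.6, 51.9 and 22.1. NTM 2-cell embryos all lay below the in vivo ones, as 15.6% of genes did not overlap there, but the difference of -1.49 was not called (SE 0.53, adjusted p = 0.380, limma).

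At the 4-cell stage the order was reversed. The in vivo embryos were down to 1.59, 1.61 and 0.778 RPKM, below every NTC embryo (5.23, 13.5 and 19.8) and every NTM embryo (11.9, 48.7 and 7.34). The difference from in vivo was 2.43 for NTC (SE 0.54, adjusted p = 0.0101, limma) and 2.93 for NTM (SE 0.73, adjusted p = 0.0261). Neither call held without each of the libraries: the first was lost without any in vivo replicate or NTC replicate 2 (adjusted p of 0.0545 to 0.0650), the second without any in vivo replicate or NTM replicate 1 (0.0595 to 0.114). With both NT types in 1 fit the difference was 2.68 (SE 0.62, adjusted p = 0.00887) and was lost only without in vivo replicate 3 (adjusted p = 0.0571). At the 8-cell stage the in vivo embryos held 12.3, 0.0438 and 0.0391 RPKM, where the 18 NT embryos from this stage on held 0.0212 to 11.1, and the gene was called between embryo types at no later stage. Part of its exons, 357 of 4410 bases, is shared with Dclre1c.

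Setdb1 (ENSMUSG00000015697, chr3:95323525-95357202, minus strand) was the most abundant methyltransferase on average in NT 1-cell embryos. NTC 1-cell embryos had 77.4, 104 and 85.1 RPKM and NTM ones 79.9, 79.4 and 71.3, where the in vivo ones had 0.279, 62.1 and 44.4. The 6 NT embryos all exceeded the 3 in vivo embryos, yet the difference of 2.43 was not called (SE 0.99, adjusted p = 0.175, limma), and 10.1% of genes did not overlap. The in vivo replicate 1 lay far below the other 2, and it also stood apart as a library, with 13.4% of reads on mitochondrial genes and 9491 genes above 0, where the other 2 had 4.71% and 6.26% and 12187 and 12593 genes. Without it the difference was 0.64 (adjusted p = 0.0662). By the 2-cell stage NTC embryos were at 31.1, 25.4 and 15.3 RPKM, a fall of 1.89 on the log2 scale (SE 0.30, adjusted p = 0.00531) that was not called without NTC 1-cell replicate 2 (adjusted p = 0.0558) or with all groups in 1 fit (0.147). The in vivo embryos fell from 46.2, 27.1 and 44.0 at the 2-cell stage to 7.70, 7.39 and 9.19 at the 4-cell stage, by 2.11 (SE 0.36, adjusted p = 0.00240). From the 4-cell stage on all 24 NT embryos held 2.99 to 17.6 RPKM.

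Ehmt1 (ENSMUSG00000036893, chr2:24789928-24919614, minus strand), which encodes GLP, was present in all 60 libraries. The in vivo 4-cell embryos had its highest group mean, with 10.6, 10.5 and 8.85 RPKM. NTM 4-cell embryos had 0.418, 0.378 and 4.04 RPKM, a difference of -2.35 (SE 0.64, adjusted p = 0.0359, limma). NTC 4-cell embryos had 1.52, 10.8 and 4.41, which overlapped the in vivo values (difference -1.01, 95% interval -2.30 to 0.29). The NTM call was lost without any single library except NTM replicate 3 (adjusted p of 0.0789 to 0.143) and under 5 of 6 other settings, among them a scaling on nuclear genes only (0.0761).

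Ehmt2 (ENSMUSG00000013787, chr17:34898469-34914052, plus strand), which encodes G9a, the partner of GLP, appeared at the 4-cell stage in all embryo types. All 18 1-cell and 2-cell embryos lay under 0.669 RPKM or at it, and 14 of them had 3 reads or fewer. At the 4-cell stage the in vivo embryos had 5.69, 9.10 and 3.45 RPKM, the NTC embryos 10.1, 5.60 and 4.02 and the NTM embryos 2.42, 14.3 and 14.5. Each 4-cell embryo was above every 2-cell embryo of its type, and the rise was 2.74 in vivo (SE 0.41, adjusted p = 0.00122, limma), 2.49 in NTC (SE 0.52, adjusted p = 0.00629) and 2.97 in NTM (SE 0.78, adjusted p = 0.0227). The first 2 of these held without any single library, while the NTM rise was lost without any single library except NTM 4-cell replicate 1 (adjusted p of 0.0726 or more). Ehmt2 was not called between NT and in vivo 4-cell embryos: the 95% interval of the difference ran from -1.02 to 1.22 for NTC and from -1.19 to 2.15 for NTM.

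**Figure D2:**
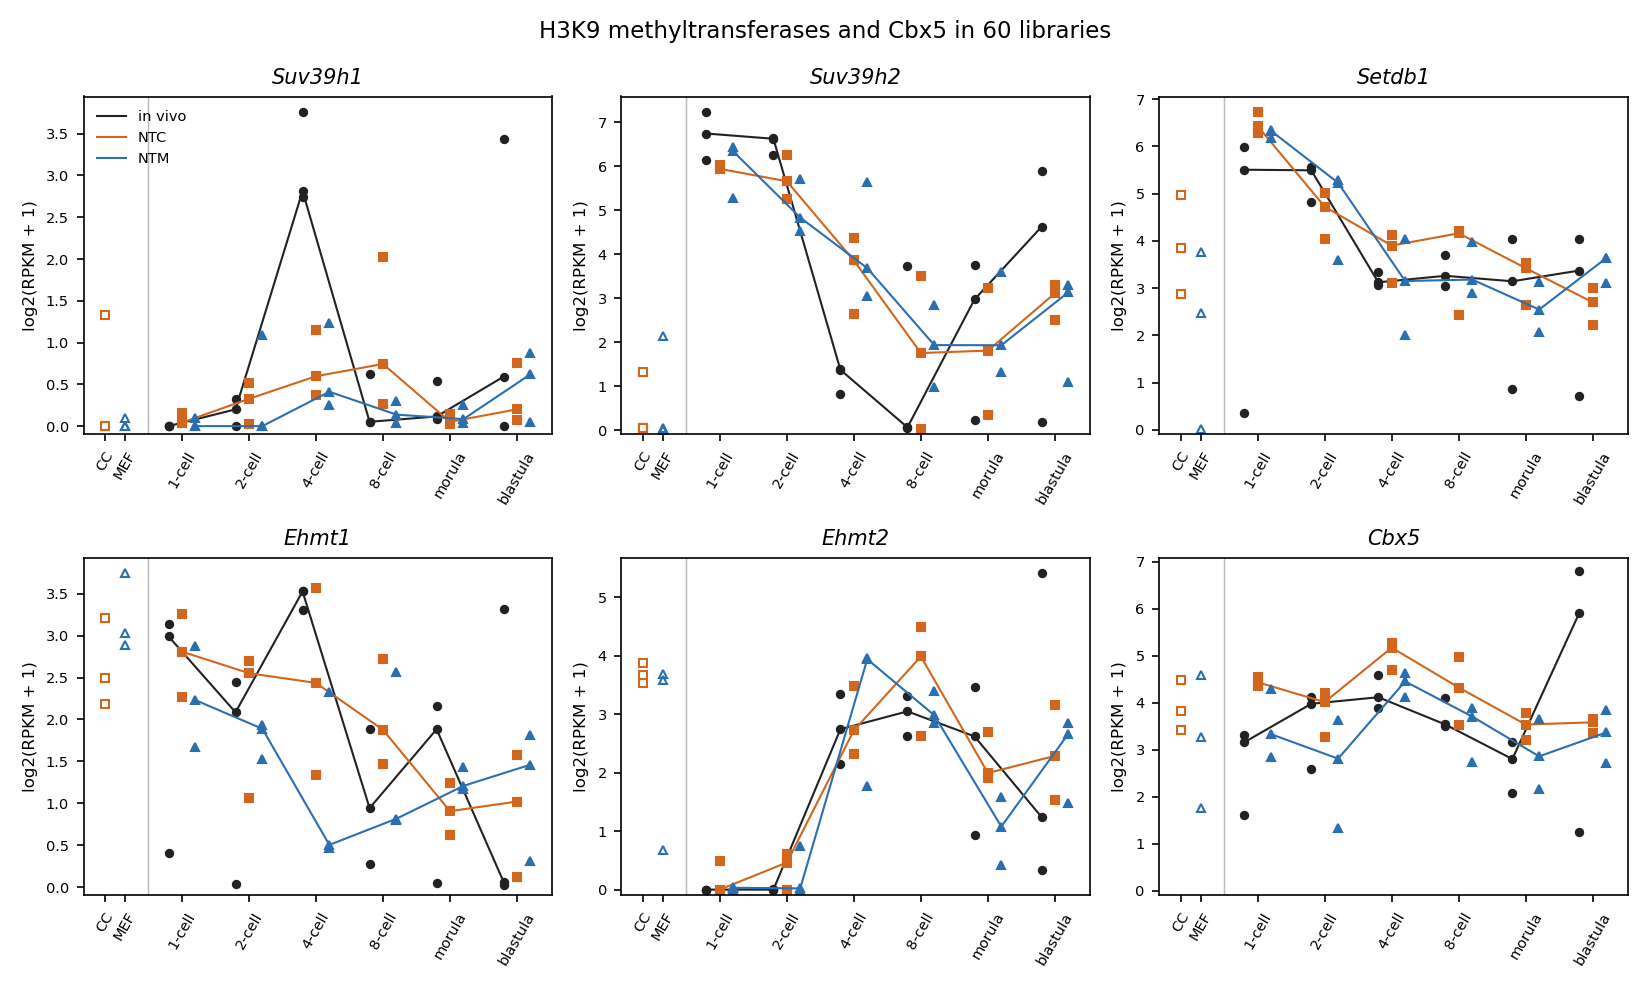
Level of the 5 methyltransferases and of Cbx5 as log2(RPKM + 1) in each of the 60 libraries, by stage and embryo type. Points are single libraries, lines join group medians, open symbols left of the grey line are the donor cells. Suv39h2 is at 22.1 to 149 RPKM in 1-cell and 2-cell embryos and at group medians of 23.7 or less later, while Ehmt2 rises at the 4-cell stage, and Suv39h1 peaks in the in vivo 4-cell libraries.

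Of the demethylases, Kdm4a (ENSMUSG00000033326, chr4:118136957-118180043, minus strand) gave a difference between embryo types that held in every refit. The in vivo 4-cell embryos had 9.85, 10.1 and 8.89 RPKM. The NTC 4-cell embryos had 0.0725, 0.642 and 0.826 RPKM and the NTM ones 0.0596, 0 and 0.0657, so that every NT embryo was under 1 RPKM. The difference from in vivo was -2.85 for NTC (SE 0.44, adjusted p = 0.00168, limma) and -3.35 for NTM (SE 0.47, adjusted p = 0.00275), and both were called without any single library and under every other setting.

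The high values of Kdm4a were confined to few groups. All 18 NT embryos from the 8-cell stage on were at 0.121 RPKM or less, and of the 9 in vivo embryos of these stages 6 were at 0 and 1 morula had 1.05. At the 8-cell stage all 3 in vivo libraries were at 0 (3 reads there equal 0.0250 to 0.0894 RPKM). The in vivo 4-cell mean was 192-fold the mean of this 3-read floor, which covers counting error only. The MEFs held 21.2, 21.6 and 11.6 RPKM, above every embryo, and the CCs 7.97, 0.0383 and 3.87, a difference between the donor cells of 2.38 that was not called (SE 0.87, adjusted p = 0.184, limma). At the 1-cell stage NTC embryos had 4.17, 10.2 and 3.37 RPKM, all above the in vivo embryos (0.546, 0.250 and 1.45), again without a call (difference 1.91, SE 0.53, adjusted p = 0.104), at a stage where 33.5% of genes did not overlap.

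Kdm4b (ENSMUSG00000024201, chr17:56326062-56402870, plus strand) was a gene of the donor cells. CCs had 5.82, 15.2 and 19.9 RPKM and MEFs 7.74, 9.34 and 13.7, whereas the highest of the 54 embryos had 3.32 and 18 were at 0. NTC 1-cell embryos had 0.121, 1.04 and 0 RPKM, 3.33 lower than CCs on the log2 scale (difference -3.33, SE 0.53, adjusted p = 0.00328, limma), and NTM 1-cell embryos had 0.0577, 0 and 0.347 (difference from MEFs -3.29, SE 0.34, adjusted p = 0.000219). Blastulas of both NT types were as far below their donor cell, by -3.55 and -3.20, and all 4 of these calls held in every refit. An enucleated oocyte contributes most of the RNA of a 1-cell embryo, so a comparison with the donor cell sets 2 kinds of cell side by side and does not follow donor RNA.

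Kdm4c (ENSMUSG00000028397, chr4:74242497-74405860, plus strand) had its highest group mean, 21.3 RPKM, in the in vivo 4-cell embryos. It was also present in donor cells, with 0.0184, 17.9 and 15.8 RPKM in CCs and a mean of 7.50 in MEFs. NTC 8-cell embryos, with a mean of 7.23 RPKM, were not below NTC 4-cell embryos, with 6.99. All 3 in vivo 2-cell embryos were at 0, where 3 reads equal 0.0277 to 0.0371 RPKM, and the 4-cell embryos had 15.2, 33.5 and 15.2. The 4-cell mean was 665-fold the mean of this 3-read floor, which covers counting error only and does not bound the change. NTC embryos went from 0.800, 0.0287 and 0.130 RPKM to 1.91, 10.8 and 8.26 and NTM embryos from 0.105, 0 and 0 to 7.83, 0.0527 and 16.5. The NTC rise of 2.42 was called (SE 0.64, adjusted p = 0.0181, limma) but was lost without any single library except NTC 4-cell replicate 1 (0.0501 to 0.0943), and the NTM rise of 2.40 was not called (SE 1.01, adjusted p = 0.113). All NTC 4-cell embryos lay below the in vivo ones, with a difference of -1.61 (SE 0.59, adjusted p = 0.0752) that was not called either. In blastulas the in vivo embryos had 0, 0.0201 and 0 RPKM and the 6 NT embryos 0.353 to 5.48, without overlap (27% of genes) and without a call (difference 1.16, SE 0.47, adjusted p = 0.105).

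Kdm4d (ENSMUSG00000053914, chr9:14462548-14500482, minus strand) was detectable in few libraries. It was at 0 in 51 of 60 and had 3 reads or fewer in 54. Only NTM 1-cell replicate 2, with 9.91 RPKM (419 reads), and NTC 1-cell replicate 2, with 1.32 RPKM (60 reads), exceeded 1 RPKM. The other NTM 1-cell embryos had 0 and 0.0212 RPKM, so the group mean rests on 1 library. From the 2-cell to the blastula stage no NT embryo had more than 2 reads, a depth at which 3 reads equal at most 0.198 RPKM. Such floors cover counting error only, since reads carry no molecular identifiers.

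**Figure D3:**
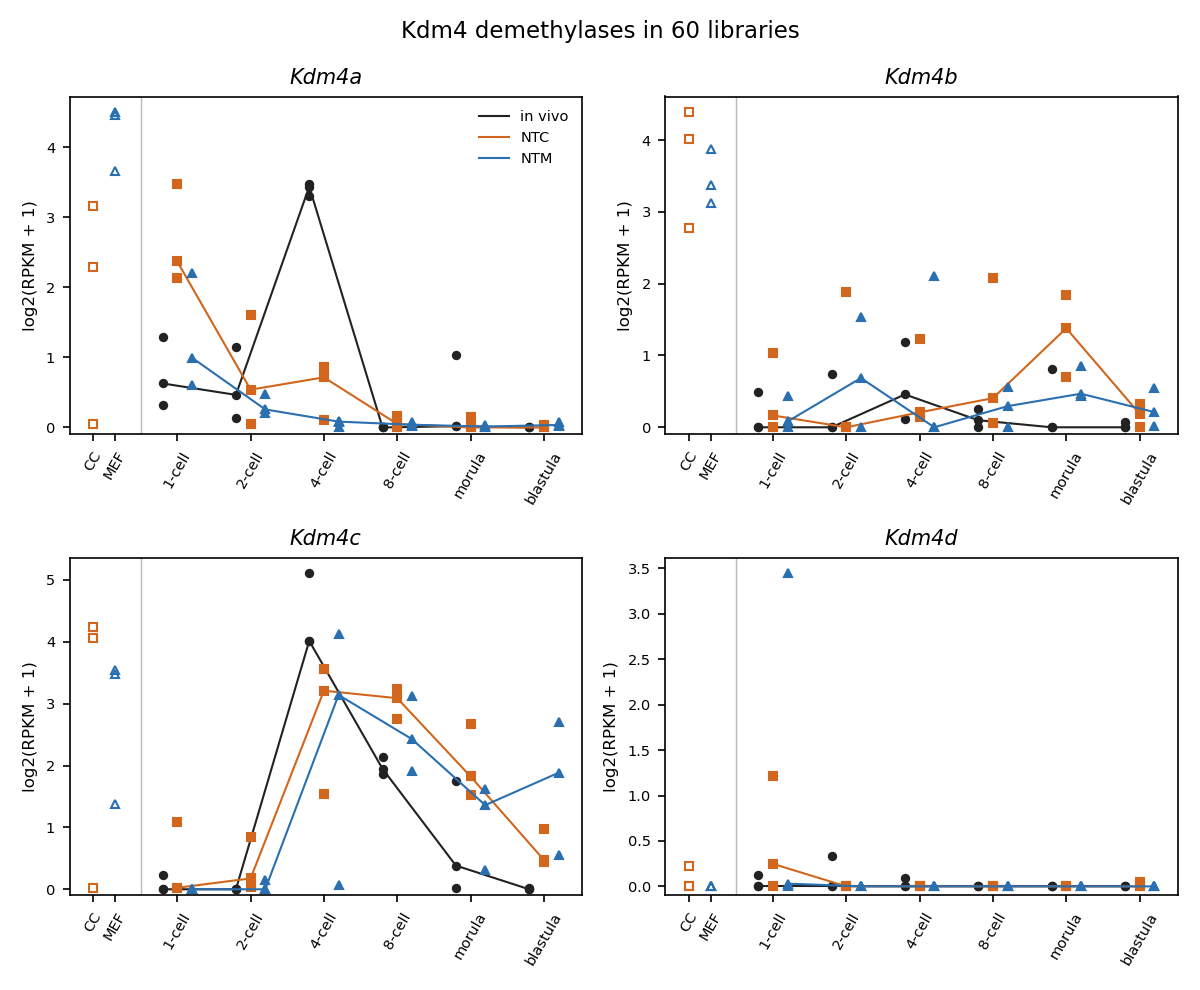
Level of the 4 Kdm4 demethylases as log2(RPKM + 1) in each of the 60 libraries, by stage and embryo type. Points are single libraries, lines join group medians, open symbols are the donor cells. Kdm4a is at 8.89 to 10.1 RPKM in the in vivo 4-cell libraries and under 1 RPKM in the NT ones, and Kdm4d exceeds 1 RPKM in 2 libraries.

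Cbx5 (ENSMUSG00000009575, chr15:103191544-103239816, minus strand), the reader, was found in all 60 libraries and was called in no comparison of embryo types. NTC 4-cell embryos had 37.6, 24.8 and 35.1 RPKM, NTM ones 23.8, 16.3 and 20.9 and in vivo ones 23.0, 13.8 and 16.4. The NTC values lay above the in vivo ones without overlap, by 0.85 (SE 0.34, adjusted p = 0.0972, limma), and the difference was called when RPKM was taken over nuclear genes only (1.31, adjusted p = 0.0220) or scaled to the median ratio (1.28, adjusted p = 0.0285). NTC 1-cell embryos, at 19.5, 20.7 and 22.5 RPKM, were likewise all above the in vivo ones at 2.05, 8.91 and 7.93 (difference 1.76, SE 0.52, adjusted p = 0.115), and without in vivo replicate 1, the library that stood apart at this stage, the difference was 1.22 and called (adjusted p = 0.0187). The in vivo blastulas spread from 1.37 over 59.4 to 111 RPKM, wider than any other group of this gene.

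The levels of most members did not give a strict order of groups. When the 20 groups were ranked by mean RPKM, neighbouring groups overlapped everywhere except at 6 places, 2 of them for Kdm4a, 1 each for Setdb1, Ehmt2, Kdm4b and Cbx5. MEFs stood above the in vivo 4-cell embryos for Kdm4a, MEFs above the next group, NTC morulas, for Kdm4b, and NTM 1-cell embryos above in vivo 2-cell embryos for Setdb1. Replicates spread widely in some groups. In the in vivo blastulas Ehmt2 was at 0.255, 41.4 and 1.36 RPKM and Suv39h2 at 0.130, 23.7 and 58.8.

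Summed over the 5 methyltransferases, the level per length was 121 to 176 RPKM in in vivo 1-cell embryos, 142 to 171 in NTC and 120 to 169 in NTM ones, and it had come down to 31.6 to 34.8, 34.5 to 42.4 and 17.9 to 71.6 at the 4-cell stage. The 4 demethylases summed to 0.546 to 1.62, 4.31 to 12.6 and 0.583 to 13.5 RPKM at the 1-cell stage and to 24.2 to 44.9, 3.33 to 11.6 and 3.38 to 16.6 at the 4-cell stage. The Kdm4 sums of the in vivo 4-cell embryos lay above those of all NT 4-cell embryos, while the sums of the methyltransferases overlapped. Between these libraries 27.8% of all genes did not overlap, and the sums were not tested. The in vivo sum was mostly Kdm4c and Kdm4a (means of 21.3 and 9.63 RPKM), and Kdm4c overlapped in NTM embryos and was not called. Donor cells had 13.8 to 39.5 RPKM (CCs) and 32.6 to 39.1 (MEFs) of demethylase and 21.6 to 48.8 and 7.01 to 34.3 of methyltransferase transcript.

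Whether NT embryos differ from in vivo embryos was asked at each stage. A difference was called at an adjusted p under 0.05 and a log2 difference of at least 1 in size. At the 4-cell stage 3 of the 9 members tested were called for NTC (Suv39h1, Suv39h2 and Kdm4a), against 27.8% of the 11457 genes tested. For NTM the count was 4 of 9 (Ehmt1 in addition), against 21.1% of 11143 genes, and for both NT types in 1 fit 3 of 9, against 26.6% of 11264 genes. The NTC share and that of both types are near those of all genes, and 1 of the 4 NTM calls, Ehmt1, was lost in most refits, so nothing about the members is read from these counts. Groups did not overlap for 5 of 9 members in NTC (43.9% of genes) and 4 of 9 in NTM embryos (41.1%). The median difference of the members tested was -0.06, -0.12 and 0.03, where all genes tested had -0.39, -0.69 and -0.41. The comparisons share the 3 in vivo libraries and are not independent of each other. Mitochondrial reads differed between the same libraries. With RPKM taken over nuclear genes only, Suv39h1, Suv39h2 and Kdm4a were still called for both NT types and Ehmt1 was not.

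At the other 5 stages limma called 0 members for NTC in 32 tests (2 with an unadjusted p under 0.05), 0 for NTM in 30 (2) and 0 for both together in 34 (5), where 2.29%, 0.838% and 5.22% of all gene tests were called and 18.6%, 15.4% and 20.7% had an unadjusted p under 0.05. No member was called between the 2 kinds of NT embryo at any stage. Limma called 0 in 33 tests outside the 4-cell stage (3 with an unadjusted p under 0.05), where 4.16% of gene tests were called and 15.5% had an unadjusted p under 0.05. Among 4-cell embryos it called 0 of 8 members and 0% of genes, and 0 members had an unadjusted p under 0.05.

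**Figure D4:**
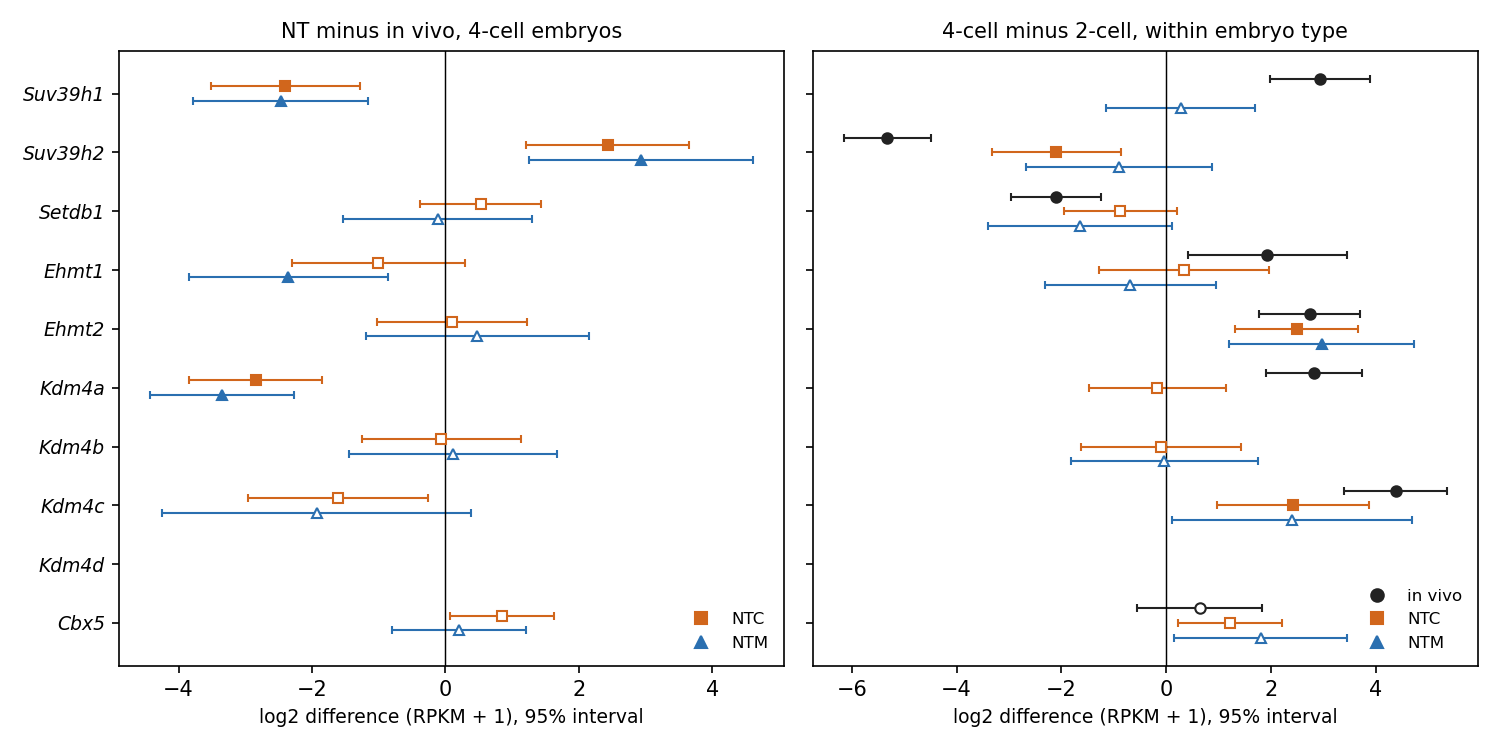
Differences in log2(RPKM + 1) with 95% intervals for each member, NT minus in vivo 4-cell embryos (left) and 4-cell minus 2-cell embryos within each type (right). Filled symbols were called (adjusted p under 0.05 and at least 1 in size), and members with a mean under 0.5 RPKM in a comparison were not tested and have no symbol. Suv39h1 and Kdm4a lie left of 0 and Suv39h2 right of 0 for both NT types.

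How each embryo type changes from stage to stage was the other comparison of the design. Between 2-cell and 4-cell embryos 7 of 8 members tested changed in vivo, against 52.2% of 12995 genes. Suv39h1 (2.93), Ehmt1 (1.93), Ehmt2 (2.74), Kdm4a (2.83) and Kdm4c (4.38) rose, and Suv39h2 (-5.32) and Setdb1 (-2.11) fell. In NTC embryos 3 of 8 changed, against 36.6% of 12324 genes: Suv39h2 (-2.10) fell, and Ehmt2 (2.49) and Kdm4c (2.42) rose. In NTM embryos 1 of 8 changed, Ehmt2 (2.97), against 26.4% of 11742 genes. The Suv39h2 fall of NTC embryos was lost without NTC 2-cell replicate 1 or 2 or NTC 4-cell replicate 2 (adjusted p of 0.0502 to 0.0829), and the Ehmt1 rise in vivo without in vivo 2-cell replicate 3 or any in vivo 4-cell replicate (0.0554 to 0.137).

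The in vivo embryos reversed part of this at the next step. Between 4-cell and 8-cell embryos 4 of 8 members fell, against 43.7% of 10417 genes: Kdm4a by 3.41, Suv39h1 by 2.86, Ehmt1 by 2.42 and Kdm4c by 2.40. Scaled to the median ratio, the differences of Ehmt1 and Kdm4c were -1.45 and -1.16 and were not called (adjusted p = 0.0710 and 0.0756). In NTC and NTM embryos 0 of 8 and 0 of 7 members changed at this step by limma, with an unadjusted p under 0.05 for 0 and 1 and with 0.0564% and 0.363% of genes called. Outside the 4-cell stage the single call was Setdb1 in NTC embryos, for the step to the 2-cell stage (1 of 6 members, 13.5% of genes).

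The same change was taken without the 4-cell embryos, in a comparison chosen after the data had been seen. From the 2-cell to the 8-cell stage Suv39h2 fell by 5.23 in vivo (SE 0.97), by 3.97 in NTC (SE 0.82) and by 3.11 in NTM embryos (SE 0.60), with adjusted p = 0.00387, 0.00613 and 0.00475 (limma). Ehmt2 rose by 2.99, 3.34 and 2.82 (SE 0.44, 0.59 and 0.45) and Kdm4c by 1.98, 2.67 and 2.44 (SE 0.42, 0.47 and 0.48), all of them called. Setdb1 fell by 1.96 in vivo (SE 0.46, adjusted p = 0.0109), with differences of -0.99 and -1.36 in NTC and NTM that were not called. In all, 4 of 6, 3 of 8 and 3 of 7 members tested were called, against 41.6%, 35.1% and 39.8% of genes. Suv39h1 and Kdm4a were under the mean of 0.5 RPKM in the in vivo comparison and were not tested there.

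The test of whether a stage change differs between NT and in vivo embryos bears on the same libraries. From the 2-cell to the 4-cell stage it was called for 3 of 9 members in NTC and the same 3 in NTM embryos (Suv39h1, Suv39h2 and Kdm4a), against 14.3% and 9.91% of genes, and from the 4-cell to the 8-cell stage for 3 of 9 (Suv39h1, Kdm4a and Kdm4c) and 2 of 9 (Suv39h1 and Kdm4a), against 19.5% and 18.7%. In the 6 tests of steps without 4-cell embryos it was called for 0 of 39 member tests (limma, 2 with an unadjusted p under 0.05) and 0.187% of gene tests (12.2%). From the 2-cell directly to the 8-cell stage it was called for 0 of 7 members in NTC and 0 of 6 in NTM embryos, with 0.219% and 0.577% of genes. Suv39h1 and Kdm4a were under the mean of 0.5 RPKM in both of these fits and were not tested, so the result bears on neither gene. For Suv39h2 in NTM embryos the difference from the 2-cell to the 8-cell stage was 2.13, with a 95% interval of -0.49 to 4.74.

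Against the donor cells the NT 1-cell embryos had more Suv39h2 and Setdb1 and less Ehmt2 and Kdm4b. NTC 1-cell embryos were higher than CCs for Suv39h2 (5.50, SE 0.42) and Setdb1 (2.59, SE 0.55) and lower for Ehmt2 (-3.53, SE 0.28) and Kdm4b, 4 of 8 members tested against 50% of 12819 genes. NTM 1-cell embryos were higher than MEFs for Suv39h2 (5.30, SE 0.66) and Setdb1 (4.19, SE 0.89) and lower for Ehmt2 (-2.62), Kdm4a (-2.94), Kdm4b and Kdm4c (-2.80), 6 of 9 against 55.2% of 13082 genes. All 3 NTM 1-cell embryos were at 0 for Kdm4c, while the MEFs had 10.2, 1.61 and 10.7 RPKM. The MEF mean was 220-fold the mean 3-read floor of these embryos, which covers counting error only. The Ehmt2 difference from MEFs was lost without any single library except MEF replicate 3 (adjusted p of 0.105 to 0.125), the lowest MEF library with 0.598 RPKM.

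In blastulas fewer members were apart from the donor cells. NTC blastulas were higher than CCs for Suv39h2 (2.50) and lower for Kdm4b, 2 of 8 members against 24.2% of 11469 genes. NTM blastulas were lower than MEFs for Ehmt1 (-2.03), Kdm4a (-4.17) and Kdm4b, 3 of 8 against 30.8% of 12312 genes. The Ehmt1 call was lost without any single library (adjusted p of 0.0504 to 0.0901), and the Suv39h2 call without CC replicate 2 or 3 or NTC blastula replicate 1 or 2 (0.0565 to 0.0943). Between the donor cells themselves 0 of 8 members were called (limma, 1 with an unadjusted p under 0.05), against 6.29% of 11978 genes.

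A list of 34 other genes of H3K9 methylation gives the setting of these changes. At the 4-cell stage 6 of the 30 list genes tested were lower in NTC than in vivo embryos and 0 higher, against 27.8% of all genes called, and in NTM embryos 5 of 30 were lower and 1 higher, against 21.1%. The median of the list genes was -0.35 and -0.64, against -0.39 and -0.69 for all genes. The largest NTC differences were those of Dppa3 (-8.35), which protects maternal DNA from demethylation, Cbx3 (-4.36), a relative of Cbx5, and the chromatin remodeller Atrx (-2.12). In NTM embryos they were those of Dppa3 (-8.03), Cbx3 (-3.79) and the demethylase Kdm1b (-2.51), and the gene that was higher was Cbx1 (1.96). Dppa3 had at least 8284 RPKM in each in vivo 4-cell embryo, a mean of 31.4 in NTC and 38.0 in NTM 4-cell embryos, and a mean of 105 in in vivo 8-cell embryos, a step of -6.55 for in vivo embryos.

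Between NT and in vivo embryos fewer list genes were called at other stages. With both NT types in 1 fit, blastulas were lower for Cbx3 (-3.50), Uhrf1 (-2.46), a factor that binds methylated H3K9 and hemimethylated DNA, Cbx1 and Atrx and higher for Atf7ip2 (2.35), 5 of 29 list genes tested against 18.5% of all genes. With the NT types apart 1 list gene was called in NTC blastulas (Cbx3) and 0 in NTM blastulas. The 8-cell embryos of both types in 1 fit were higher for Daxx (2.05), a histone chaperone that works with Atrx, 1 of 29 list genes against 3.61%. In NTM against NTC 1-cell embryos 3 of 31 list genes tested were higher and 7 lower, against 19.8% of all genes, the only stage at which the NT types differed for any list gene. Among in vivo embryos, 10 of 34 list genes tested rose and 6 fell between 2-cell and 4-cell embryos, against 52.2% of all genes called, and 11 of 29 fell at the next step, against 43.7%.

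For each member, the genes with the most similar pattern over the 20 group means of log2(RPKM + 1) were found among 18769 genes by Pearson correlation. These groups share stages and embryo types, so the values are a description. Suv39h2 went with Ipmk (r = 0.97) and Mllt10 (0.96), Ehmt2 with R3hcc1 (0.95) and Cpsf7 (0.94), Kdm4c with Lamp2 (0.94) and Ddx49 (0.93), and Ehmt1 with Smarca4 (0.91) and Ndel1 (0.90). Setdb1 went with Styk1 (0.93) and Fbxw26 (0.92), Kdm4a with Acin1 (0.93) and Mms19 (0.93), Kdm4b with Atp8b2 (0.97) and Man2c1 (0.97), and Cbx5 with Gramd2 (0.75) and Aurkb (0.71). Suv39h1, highest in in vivo 4-cell embryos, went with Hist1h2ap (0.93) and Gm15290 (0.93), and Kdm4d, high in 1 library, with Vmn1r57 (0.997) and Gm43954 (0.993). By rank correlation only Ipmk kept a place among the first 2 genes of its member. Among the members themselves the closest pairs were Ehmt1 and Kdm4a (r = 0.89), Ehmt2 and Kdm4c (0.79), Setdb1 and Kdm4d (0.72, with Kdm4d high in 1 library) and Setdb1 and Suv39h2 (0.72), and the most opposed were Ehmt2 and Suv39h2 (-0.84).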

How the data were processed

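The members and lists were chosen with earlier results of these data known. The authors deposited RPKM values for 27238 genes in 60 single-embryo or donor-cell libraries, made from amplified cDNA without molecular identifiers and without strand. The study's methods name TopHat with Bowtie2 and HTSeq, whereas the submitters' processing notes name Bowtie 0.12.2 and build mm8. Which of these made the values was not settled, and coordinates here are those of GRCm38 (GENCODE M21), matched by Ensembl identifier. Reads per member were recovered from RPKM, library totals and exon lengths. Symbols were found for 27013 genes.

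Each comparison was fitted over its own groups with limma 3.58.1 (R 4.3.3) on log2(RPKM + 1), which understates changes of low genes. Genes with a mean of at least 0.5 RPKM over the libraries compared entered, and p-values were adjusted by Benjamini-Hochberg over all of them. A call needed an adjusted p under 0.05 and a log2 difference of at least 1. In all, 54 comparisons were made, and the change from 2-cell to 8-cell embryos was added after the data had been seen, within the 3 embryo types and as 2 interactions. Count tests were not used. Genes named beyond the members were the largest called differences of a list of 34 other genes of H3K9 methylation and, for likeness, the 2 best correlated genes per member. Alternatives were a pseudocount of 0.1, no filter, RPKM over nuclear genes, scaling to the median ratio, a joint fit of the 20 groups, the replicate number as a block and leaving out each library. The code was tested on simulated data. Tables were made with Python 3.11.15, numpy 2.4.6 and pandas 2.3.3. Identical libraries were looked for, and 0 pairs were found.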

Additional observations from a re-analysis of the deposited data

Results flagged for a closer look

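The stage change differed between NT and in vivo embryos, by a test of the interaction in limma, for 11 combinations of member and step, all of which use the in vivo 4-cell libraries, and those of NTC and NTM share the in vivo embryos. From the 2-cell to the 4-cell stage the change in NTC embryos minus that in vivo was -2.51 for Suv39h1 (adjusted p = 0.0119), 3.22 for Suv39h2 (0.00712) and -2.99 for Kdm4a (0.0101). For NTM embryos it was -2.66 for Suv39h1 (adjusted p = 0.0294), 4.42 for Suv39h2 (0.00878) and -3.08 for Kdm4a (0.00527). From the 4-cell to the 8-cell stage it was 3.17 for Suv39h1 (adjusted p = 0.0103), 2.92 for Kdm4a (0.00256) and 2.65 for Kdm4c (0.0270) in NTC embryos, and 2.38 for Suv39h1 (0.0207) and 3.40 for Kdm4a (0.000681) in NTM embryos. Without any one replicate number, Kdm4a from the 4-cell to the 8-cell stage was still called in both NT types, and each of the other 9 was lost without at least 1 number. The in vivo 4-cell libraries also differed in mitochondrial reads. With RPKM over nuclear genes only, 8 of the 11 were called, and Suv39h1 in NTM embryos at the earlier step (adjusted p = 0.0544) and at the later one (0.0585) and Kdm4c in NTC embryos (0.0683) were not. A joint fit of the 20 groups lost Suv39h2 at the earlier step (0.108) and Kdm4c (0.0636), both in NTC embryos.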

How the results depend on the processing

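Of 52 calls of members, 28 held in every refit and 0 changed sign. For NTM against in vivo embryos the 4 calls became 2 without the filter on low values and 2 when scaled to the median ratio. A joint fit of the 20 groups gave 7 calls in place of 3 for both NT types against in vivo, 1 in place of 0 for NTM against NTC, 4 in place of 1 for the steps of NTM embryos and 1 in place of 0 for MEF against CC. No filter left 0 calls in the steps of NTM embryos. With 2-cell to 8-cell in place of both steps, an alternative added after seeing the data, calls went from 11 to 4 in vivo and from 1 to 3 in NTM embryos. For the interactions they went from 11 to 0, while a pseudocount of 0.1 left 7. Suv39h1 and Kdm4a, which gave most of the 11 interactions, were under the mean of 0.5 RPKM in both interaction fits from 2-cell to 8-cell. They were not tested there or in the in vivo fit, so these counts say nothing about either gene. Without the filter on low values, calls were lost for Suv39h2 in NTM 4-cell against in vivo embryos (adjusted p = 0.0598, limma), Kdm4c from 2-cell to 4-cell NTC embryos (0.0571), Ehmt1 over the same step in vivo (0.0802), Ehmt2 over it in NTM embryos (0.0671) and in NTM 1-cell embryos against MEFs (0.0722), Suv39h2 in NTC blastulas against CCs (0.0506) and Ehmt1 in NTM blastulas against MEFs (0.0601). The joint fit lost Suv39h2 in NTC 4-cell against in vivo embryos (0.0546) and over the step before (0.0713), and the median ratio lost Suv39h1 in NTM 4-cell against in vivo embryos (0.0531). Leaving out 1 library gave 2 to 4 calls for NTC against in vivo, 1 to 5 for NTM, 2 to 5 for both, 0 to 1 for NTM against NTC, 10 to 11, 2 to 4 and 0 to 1 for the steps of in vivo, NTC and NTM embryos, 0 for MEF against CC and 13 to 17 for NT embryos against donor cells. Leaving out 1 replicate number from all groups at once gave 3 to 5 interactions in place of 11. The cause of these changes was not tested.

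Same-numbered libraries did not deviate together: in 0 of 38 pairs of groups was every correlation over 0.1, so the numbers do not pair the samples. With the replicate block, NTM against NTC had 1 call in place of 0, and the Ehmt1 difference of NTM from in vivo 4-cell embryos was no longer called (adjusted p = 0.0576). It lost no other call.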
